A study of Drosophila melanogaster with 2 samples.

Results

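The 10 genes described here are core components of the Notch pathway: N, Dl, Ser, neur, numb, spdo, Su(H), mam, H and Hey. They were chosen by name from the 13968 protein-coding genes on the nuclear chromosomes, because Notch signalling separates sister neurons that do and do not express Unc-4. The data were ChIP-seq peak lists for Unc-4, a homeodomain transcription factor of the nervous system, from whole Drosophila melanogaster embryos. There was 1 group of 2 biological replicates, made of transgenic embryos aged 6 to 18 h with an insertion that encodes an Unc-4-eGFP fusion protein. Immunoprecipitation used an anti-GFP antibody per the description, although the antibody label names unc-4. Chromatin was sonicated to a size range of 200 to 800 bp. The age was read from the source name, because the entry under age is not a range of hours. The possible controls named in the labels were not analysed here, so no background level stands beside the peaks. All cell types of the embryo were mixed in each sample.

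In the Notch pathway, a ligand on one cell (Delta or Serrate) binds the receptor Notch on its neighbour, and endocytosis of the ligand exposes the receptor to cleavage. The released intracellular domain enters the nucleus, where it joins the DNA-binding protein Suppressor of Hairless and the coactivator Mastermind to switch on target genes. In neural precursors the protein Numb is inherited by 1 daughter cell, where it acts through Sanpodo to keep the receptor from signalling, so that sister neurons take different fates.

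Unc-4-eGFP peaks lay in or near 6 of these 10 genes, close to the share of 57.1% over all protein-coding genes. Within the gene or 5 kb on either side, the pooled list of reproducible peaks held summits at N, Dl, Ser, neur, Su(H) and mam, and none at numb, spdo, H or Hey. The strongest peaks nearest to a start of one of the 10 genes were at the promoters of mam, with a signal of 438, and Su(H), with a signal of 290.4, while the median signal of all 4899 nuclear peaks in that list was 107. The single Dl peak lay inside an intron and not at the promoter. All 3 peaks at neur, and all 4 at N, were nearest to the start of a neighbouring gene. These values come from lists in which each peak has a summit (its highest point) and a signal value given by the authors, whose scale is not stated and which can be compared only within a list.

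The DNA under 7 summits named in the gene-by-gene account is shown, and no mam summit is among them. Those at the N promoter and upstream of spdo are not in the pooled list of reproducible peaks. They are in a longer ranked list described below. Each stretch lies within 50 bp of a summit and is read from the RefSeq Release 6 plus ISO1 MT genome, in the coordinates of dm6, 5′ to 3′ on the strand of the Notch pathway gene. At most 30 bases of untranslated exon are printed in each, so the Su(H) and neur stretches are shorter than the 101 bases searched. Capitals mark matches on either strand. At Su(H) they mark TATCGATA, which contains the shorter motif TATCGA. At neur they mark that shorter motif read on the other strand. In the Dl, Ser and dnc stretches they mark GAGAGA or its reverse complement. At spdo they mark GTGGGAA read on the other strand, and a match is a description of the letters, not a bound site.
Su(H) promoter, chr2L:15039431-15039517, plus strand: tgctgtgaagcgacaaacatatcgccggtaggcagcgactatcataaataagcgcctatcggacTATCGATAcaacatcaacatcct
neur intron at the hyx start, chr3R:9038836-9038865, minus strand: TCGATAgtttttgttacttgattttaatct
Dl intron, chr3R:19321988-19322088, minus strand: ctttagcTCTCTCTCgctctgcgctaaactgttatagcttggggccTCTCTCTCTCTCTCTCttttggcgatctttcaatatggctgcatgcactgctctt
Ser promoter, chr3R:27194265-27194365, minus strand: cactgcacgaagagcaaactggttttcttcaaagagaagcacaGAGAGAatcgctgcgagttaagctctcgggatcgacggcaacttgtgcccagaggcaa
N promoter, chrX:3134764-3134864, plus strand: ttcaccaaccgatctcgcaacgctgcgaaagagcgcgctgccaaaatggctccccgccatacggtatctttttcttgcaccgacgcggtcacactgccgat
dnc side of the N window, chrX:3176188-3176288, plus strand: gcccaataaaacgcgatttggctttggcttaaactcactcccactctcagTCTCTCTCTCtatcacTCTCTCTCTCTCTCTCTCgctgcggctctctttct
spdo upstream, chr3R:30475352-30475452, plus strand: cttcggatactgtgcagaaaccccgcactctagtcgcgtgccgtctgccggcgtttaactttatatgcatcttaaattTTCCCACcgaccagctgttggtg

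The count of genes with peaks was close to that of coding genes at large. In the pooled list 6 of the 10 Notch pathway genes had 1 or more summits in this window, against 57.1% of all protein-coding genes. In replicate 1 the count was 4 of 10 (Dl, Su(H), neur and mam), against 49.5% of coding genes. In replicate 2 it was 5 of 10 (those 4 and N), against 46.1% of coding genes. With 10 genes, 1 gene more or fewer moves such a count by 10 percentage points, and each of these counts was within that distance of the share of all genes. The windows of the 10 genes were also long, with a median of 30651 bp and a range of 12166 to 79154 bp, while the median over all coding genes was 12164.5 bp. The median was 1 summit per window both in the 10 genes and in all coding genes.

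A stricter reading counts a summit only where the nearest annotated transcript start of any gene is the gene's own. By this reading 4 of the 10 genes (Dl, Ser, Su(H) and mam) had a summit in the pooled list, against 26.4% of coding genes. Replicate 1 had 3 (Dl, Su(H) and mam), against 20.7% of coding genes, and replicate 2 had 5 (N, Dl, neur, Su(H) and mam), against 17.9%. The conservative list, the authors' second thresholded list for both replicates together, had 5 (N, Dl, Ser, Su(H) and mam), against 24.5%. Taking any of these 4 lists, 6 of the 10 genes had a summit nearest to their own start, against 30.4% of coding genes for the same 4 lists, and numb, spdo, H and Hey had none in any of them. Of the 16 pooled summits in the 10 windows, 7 were nearest to a start of the pathway gene and 9 to a start of another gene.

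**Figure D1:**
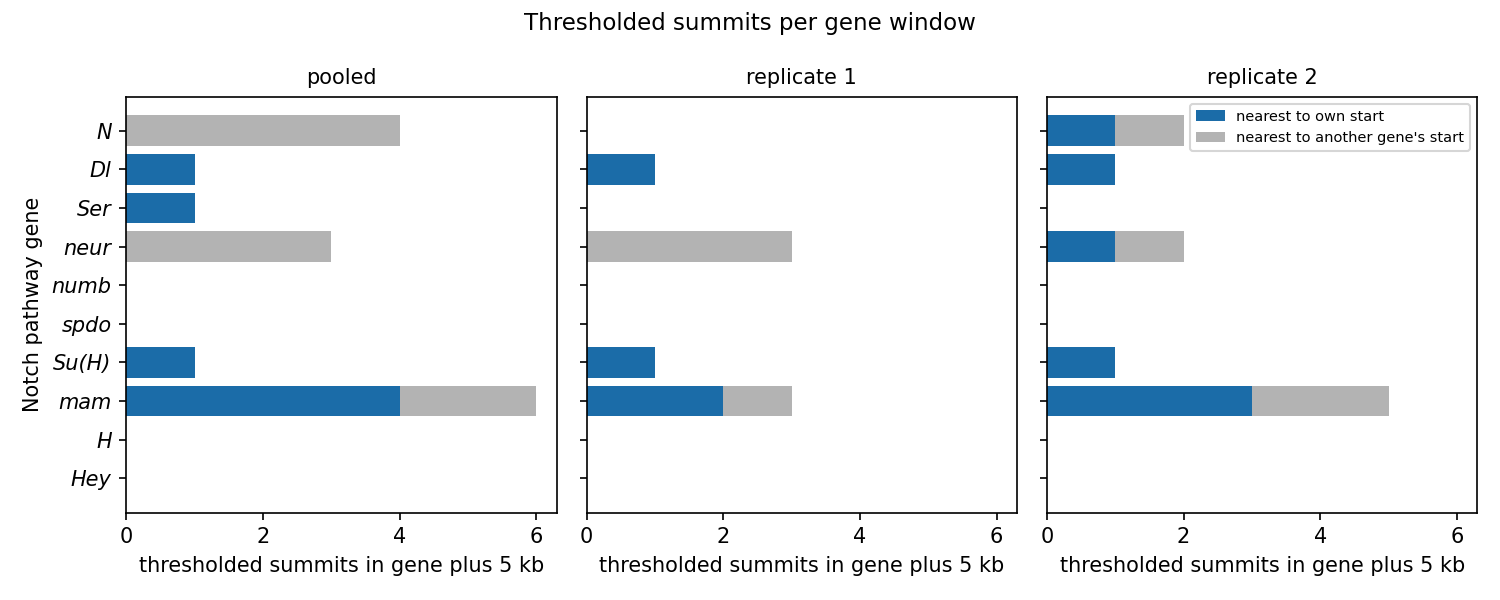
Number of thresholded summits (horizontal axis) in each Notch pathway gene plus 5 kb on either side (rows), for the pooled, replicate 1 and replicate 2 lists; blue summits are nearest to the gene's own start and grey ones to another gene's. The 6 pooled summits of mam include 4 nearest to its own starts, the 4 of N and the 3 of neur are all grey, and numb, spdo, H and Hey have no bar.

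Of the 16 summits, 12 lay within 1 kb of a transcript start of any gene, against 92.9% of all 4899 nuclear pooled summits. The 4 farther away were in introns of N, Dl and mam, and 7.14% of all summits lay that far. The median signal of the 16 peaks was 91.9, close to the 107 of all peaks. Peaks of both replicates' thresholded lists overlapped 7 of the 16, and neither list overlapped 6. Over all pooled peaks, 55.7% were overlapped in both replicates and 19.8% in neither. The overlap counts of the 16 peaks are those of neighbouring and sometimes overlapping peaks, not of independent sites.

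The receptor gene N (FBgn0004647, X:3134870-3172221, plus strand) had no pooled thresholded peak at its own promoter. Its 4 pooled summits lay at other places in the window. The strongest, with a signal of 70.9 and rank 3521 of 4899, was 202 bp upstream of dnc, which encodes a cyclic AMP phosphodiesterase. The next had a signal of 69.9 (rank 3562) and lay 79 bp upstream of CG18508, and an overlapping peak with a signal of 13.3 (rank 4640) lay 350 bp upstream of it. The remaining summit, with a signal of 57.2 (rank 4068), was in an intron of N, 27969 bp from its start and 10301 bp from the CG18508 start. All 4 were below the list's median signal. Replicate 1 had no thresholded summit in the N window, and replicate 2 had 2.

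The ranked lists hold many more peaks, each with a global IDR, an estimate of the share of irreproducible peaks among those placed as high or higher. The thresholded lists keep peaks with a value up to 0.01. The pooled and conservative ranked lists both cover the 2 replicates, but a peak can be in only 1 of them or have different global IDRs, and what each run of the analysis compared is not stated. In the pooled ranked list the strongest peak of the N window was at the N promoter itself, 56 bp upstream of the start, with a signal of 89.6 and rank 3014 of 46847. Its global IDR was 0.0508, so it was not in the pooled thresholded list, although 2025 peaks of that list (41.3%) had a lower signal. Of the 3014 ranked peaks with at least that signal, 49 (1.63%) had a global IDR above 0.01. The conservative list gave the same peak a global IDR of 0.00189 and held it at rank 2773 of 4474, together with a peak of signal 2.88 at 144 bp downstream of the start. In replicate 1 the promoter peak had a signal of 47.7 and a global IDR of 0.503, and in replicate 2 a signal of 40.9 and a global IDR of 0.00572. Thus a promoter summit of N was placed within 79 bp of the start in both replicates' ranked lists, and passed the threshold in replicate 2 and in the conservative list.

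**Figure D2:**
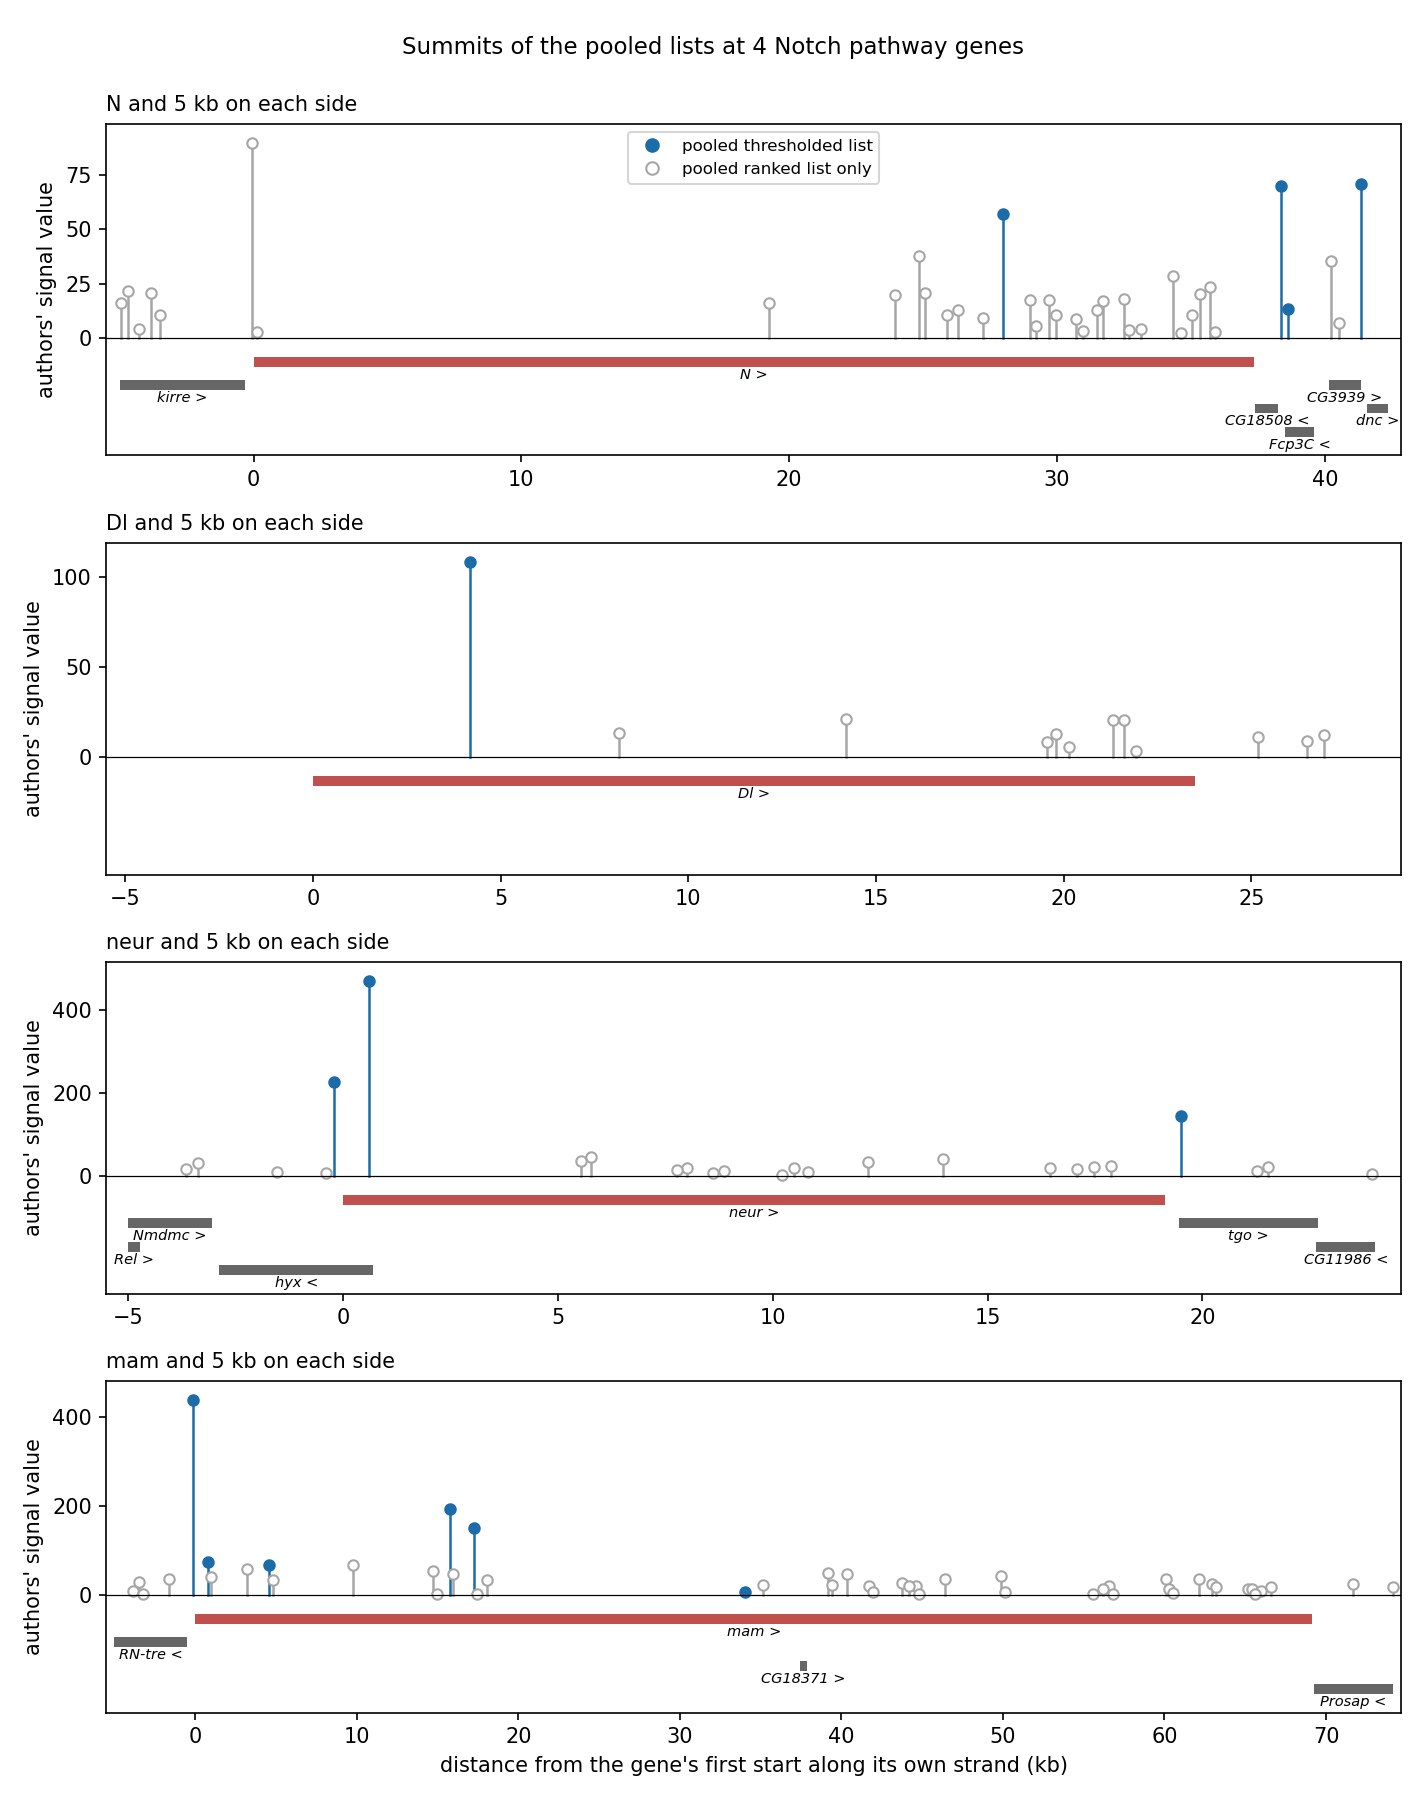
Signal value (vertical axis) of each pooled summit against its distance in kb from the gene's first start along its own strand, at N, Dl, neur and mam; filled blue points are in the thresholded list and open grey ones in the ranked list only, and bars show the protein-coding genes, with arrows for their direction relative to the named gene. The open point at the N start has a signal of 89.6, above every filled point in its window, and the Dl panel has 1 filled point, at 4179 bp.

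The ligand gene Dl (FBgn0000463, named Delta in the annotation, 3R:19302731-19326217, minus strand) had 1 summit in every thresholded list, always at the same intronic place. In the pooled list the peak spanned 3R:19321780-19322295, with its summit 4179 bp downstream of the only annotated start, a signal of 108 and rank 2433 of 4899. Replicate 1 had a signal of 72.0 with the summit at 4196 bp (rank 2419 of 3457), and replicate 2 had a signal of 36.4 at 4119 bp (rank 2472 of 2960). The summits of the 2 replicates lay 17 and 60 bp from the pooled one. No ranked summit lay within 1 kb of the Dl start in the pooled, replicate 1 or replicate 2 list. The bases under the summit held a run of TCTCTC repeats, printed above.

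The second ligand gene, Ser (FBgn0004197, 3R:27172090-27194267, minus strand), had a single pooled summit 48 bp upstream of the outer of its 2 starts. Its signal was 75.4 and its rank 3341 of 4899, with a global IDR of 0.00337. The replicates' peaks at this place had a signal of 46.9 in replicate 1 and 22.0 in replicate 2, with global IDRs of 0.155 and 0.0795, so neither replicate's thresholded list held it. The Ser promoter peak therefore rests on the pooled and conservative lists alone.

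The gene neur (FBgn0002932, 3R:9020348-9039471, minus strand) encodes the ubiquitin ligase Neuralized, which drives ligand endocytosis. Its window held the strongest of all 16 summits, with a signal of 469 and rank 430 of 4899. That summit lay in a neur intron, 621 bp downstream of the outer neur start, but only 90 bp downstream of a start of hyx on the other strand. hyx encodes the Drosophila homologue of Cdc73, a subunit of the Paf1 transcription elongation complex, and overlaps the 5′ end of neur head to head. Replicate 1 had a signal of 333 there and replicate 2 a signal of 139, and both placed it nearest to hyx.

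The second neur summit, with a signal of 227 (rank 1340), lay between the outer neur start and the second hyx start, 195 bp upstream of neur and 100 bp upstream of hyx. Replicate 1 put the summit 175 bp from neur and 120 bp from hyx, with a signal of 176.0. Replicate 2, with a signal of 48.9, put it 119 bp upstream of neur and nearer to neur than to hyx. The gene given to this peak thus changed with the list, while both replicate summits lay within 76 bp of the pooled one. The third summit, with a signal of 146 (rank 1941), lay 48 bp downstream of the start of tgo, which encodes a bHLH-PAS transcription factor related to the mammalian ARNT proteins. Replicate 1 held it with a signal of 98.7, and in replicate 2 it was only in the ranked list, with a signal of 42.8 and a global IDR of 0.234. At the inner neur start, the strongest pooled ranked peak had a signal of 47.6 and a global IDR of 0.701, against 0.0461 in the conservative ranked list.

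The gene numb (FBgn0002973, 2L:9437469-9464184, plus strand) had no thresholded summit in any list, and the nearest pooled summit lay 31269 bp outside the gene. Its strongest pooled ranked peak had a signal of 52.9, 1386 bp upstream of the inner of its 2 starts, with a global IDR of 0.0901. Within 1 kb of either start, the highest ranked signal of the pooled list was 36.7, at a global IDR of 0.640. The conservative ranked list gave these peaks lower values, with a global IDR of 0.0431 for the peak of signal 52.9 and 0.0368 for that of 36.7. It gave 0.0134 to a peak of signal 33.2 at 123 bp upstream of the inner start, and added one of signal 52.4 at 10215 bp downstream of that start (0.0209). None of these was at 0.01 or below. The highest own-start signal of replicate 1 was 29.0, at 139 bp downstream of the inner start (0.461). That of replicate 2 was 24.5, at 120 bp upstream of the inner start (0.656). At the pooled peak of signal 52.9, replicate 1 had 22.0 and replicate 2 had 19.45. The signal of 52.9 was still above that of 14.3% of the pooled thresholded peaks.

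The gene spdo (FBgn0260440, 3R:30476684-30478849, plus strand) encodes Sanpodo, a membrane protein through which Numb acts on the receptor, and it also had no thresholded summit. Its strongest pooled ranked peak lay 1282 bp upstream, with a signal of 34.4 and a global IDR of 0.342. Replicate 1 had a signal of 25.1 there, at 1216 bp. Replicate 2 had an overlapping peak with a signal of 11.2. At the promoter itself, 75 bp upstream, the pooled signal was 13.7. The nearest thresholded summit was 17377 bp away, at CG2224.

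The Su(H) gene (FBgn0004837, 2L:15039488-15043334, plus strand) encodes the DNA-binding protein of the pathway and had 1 of the clearest peaks. The summit lay 7 bp upstream of the only start, in a peak at 2L:15039292-15039657, with a signal of 290.4 and rank 1028 of 4899. In replicate 1 the signal was 181 with the summit 24 bp upstream (rank 1199 of 3457), and in replicate 2 it was 116 with the summit 17 bp upstream (rank 613 of 2960). Both replicates were above the median of their own list, which was 116 in replicate 1 and 63.4 in replicate 2. The global IDR of the pooled peak was 8.02e-05.

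The coactivator gene mam (FBgn0002643, 2R:13991203-14060356, plus strand) is the longest of the 10 genes and had the most summits. It was 1 of 176 coding genes (1.26%) with 6 or more pooled summits. It was also 1 of 43 (0.308%) with 4 or more nearest to their own starts. These counts are over genes of all lengths, and the mam window was 79154 bp, against a median of 12164.5 bp. The strongest mam summit lay 112 bp upstream of the first of 3 starts, with a signal of 438 and rank 524 of 4899. Replicate 1 had a signal of 312 there (125 bp upstream) and replicate 2 a signal of 125 (102 bp upstream), both above the median of their list.

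The other mam summits were in introns. A summit with a signal of 152 (rank 1889) lay 756 bp upstream of the second start, with a signal of 97.3 in replicate 1 and 58.0 in replicate 2. A summit with a signal of 195 (rank 1542) lay 981 bp upstream of the microRNA gene mir-4978, which is inside mam on the other strand, with a signal of 97.2 in replicate 1 and 98.9 in replicate 2. Both of these, with the promoter peak, passed the threshold in each replicate. Summits at 764 bp (signal 75.0) and 4594 bp (signal 67.5) downstream of the first start passed in neither replicate. The sixth had a signal of only 7.34 (rank 4768) and lay nearest to CG18371, a gene nested in mam. The replicate peaks overlapping it had signals of 45.7 in replicate 1 and 29.45 in replicate 2, with summits 368 and 374 bp away. In their ranked lists these had rank 3843 of 21280 and rank 3727 of 45920, while the sixth pooled peak had rank 38763 of 46847. Only the replicate 2 peak passed its replicate's threshold. The global IDR of the sixth pooled peak was 0.00189 in the pooled ranked list and 0.637 in the conservative one, which is the reverse of the N promoter peak. The conservative list lacked it and added summits with signals of 69.0, at 8238 bp upstream of the second start, where the nearest start was that of the noncoding RNA gene FBtr0309641_df_nrg, and 40.4, at 963 bp downstream of the first.

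The gene H (FBgn0001169, 3R:20621938-20628915, plus strand) encodes Hairless, which turns Su(H) into a repressor. It had no thresholded summit in any list. In the pooled ranked list a peak with a signal of 56.0 lay 85 bp downstream of its start, with a global IDR of 0.132. The conservative ranked list lacked this peak, and its strongest own-start peak at H had a signal of 15.2, 1970 bp upstream, with a global IDR of 0.811. Replicate 1 had no ranked summit within 1 kb of the H start, and replicate 2 had one with a signal of 10.7. The strongest own-start peak of replicate 2 was instead in the coding sequence, 4116 bp downstream, with a signal of 23.6 and a global IDR of 0.591. The nearest thresholded summit was 5921 bp beyond the gene, at Pi3K92E, with a signal of 231.

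The gene Hey (FBgn0027788, 2R:7995438-7998278, minus strand) encodes a bHLH-Orange repressor that responds to Notch in newly born neurons, and its strongest pooled own-start peak was the weakest of the 10 genes. No list had a thresholded summit in its window. The strongest pooled ranked peak nearest to its start had a signal of 13.8, 4 bp downstream, with a global IDR of 0.843. Replicate 1 had no ranked summit within 1 kb of the Hey start, and replicate 2 had a signal of 8.66 at 80 bp. Among pooled thresholded peaks 5.51% had a lower signal than 13.8, while 16.2% had a lower signal than the H peak and 10.2% a lower signal than the spdo peak. The nearest thresholded summit lay 5632 bp beyond Hey, at Nup44A, with a signal of 120.

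**Figure D3:**
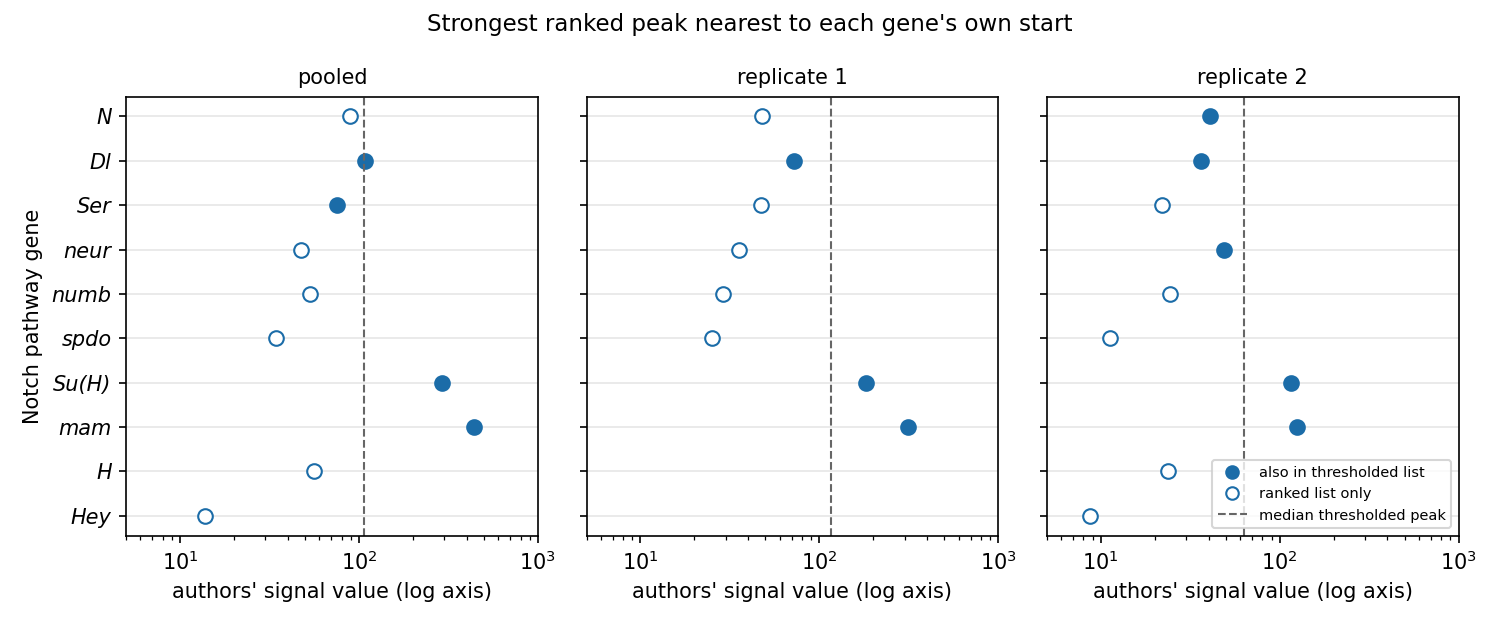
Signal value (log axis) of each gene's strongest ranked peak nearest to its own start, in the pooled, replicate 1 and replicate 2 lists; filled points are also in that list's thresholded version, and the dashed line is the median of that thresholded list. Only mam and Su(H) lie to the right of the line in all 3 panels, and H and Hey have no point in replicate 1.

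Every one of the 10 genes had some pooled ranked summit nearest to its own start, but so did 66.3% of coding genes, and that list holds 46847 peaks. In the conservative ranked list 9 of the 10 had one, all but Hey, against 66% of coding genes. With the global IDR held to 0.05, 5 of the 10 genes had one in the pooled ranked list (Dl, Ser, numb, Su(H) and mam), against 32.1% of coding genes. In the conservative ranked list 7 had one (those 5, N and neur), against 32.2%. The numb peak of this kind with the highest signal in the pooled list had a signal of 30.8, 211 bp downstream of a start, and a global IDR of 0.0474. In order of the strongest own-start signal in the pooled ranked list, mam (438) and Su(H) (290.4) came first. Dl (108), N (89.6) and Ser (75.4) followed, then H (56.0), numb (52.9), neur (47.6) and spdo (34.4), and Hey (13.8) was last. The conservative ranked list had the same signals for these peaks except at H, where the strongest was 15.2, and at Hey, where there was none. In both replicates mam was first and Su(H) next. With 2 replicates no spread was computed, and the order of the other genes differed between the replicates. neur was at 35.6 in replicate 1, below N, Dl and Ser, and at 48.9 in replicate 2, above all 3 of them. These 2 neur values are from different places. That of replicate 1, like the pooled 47.6, is at the inner start, and that of replicate 2 is at the outer start. Replicate 1 had a signal of 176.0 at the outer start, but that summit was nearest to hyx and so was not counted for neur. Ser was at 46.9 in replicate 1, above neur and numb, and at 22.0 in replicate 2, below neur, numb and H. N was at 47.7 and Dl at 72.0 in replicate 1, while N was at 40.9 and Dl at 36.4 in replicate 2.

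**Figure D4:**
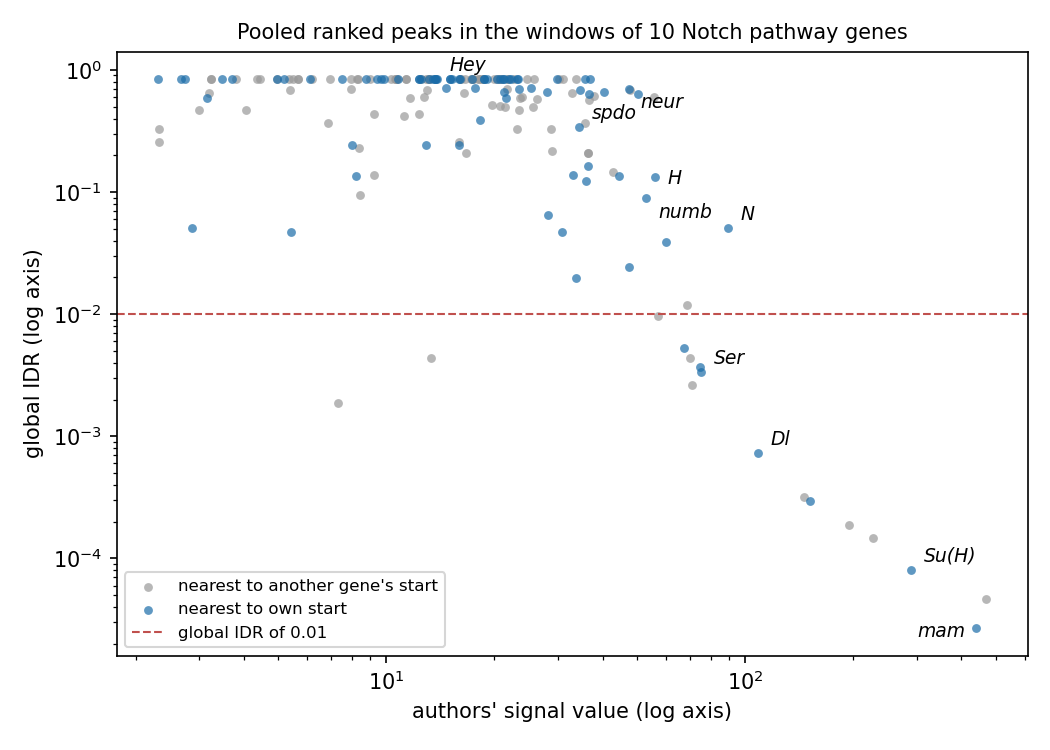
Global IDR against signal value (both log axes) for pooled ranked peaks in the windows of the 10 genes, in blue where nearest to the gene's own start and in grey where nearest to another gene's; labels mark each gene's strongest own-start peak. The labelled peaks of mam, Su(H), Dl and Ser are under the dashed line at 0.01, and N, at a signal of 89.6, is above it.

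Short motifs were looked for on both strands within 50 bp of each of the 16 summits, beside the same search at all 4899 summits. The letters TATCGA were found at 3 of the 16, against 32.1% of all summits: at Su(H), at the neur summit near hyx and at the mam promoter. TATCGATA, the DNA replication-related element known from housekeeping promoters, was at 1 (Su(H)), against 13.6%. GAGAGA, the repeat recognised by GAGA factor, was at 3 (the Dl intron, the Ser promoter and the dnc side of N), against 6.80%. TAATTA, a homeodomain core, was at none of the 16, against 5.74%. CACGTG was also at none, against 1.76%. The Su(H)-type letters GTGGGAA and GTGAGAA were at none, against 0.939% and 1.29% of all summits. GTGGGAA was found, as TTCCCAC, under the weak ranked spdo peak printed above, which is not among the 16 and had a global IDR of 0.342. The ranked peaks also read at N, H and numb did not hold it. No share over all ranked peaks was counted.

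The same motifs were counted from 250 bp before to 50 bp after each of the 15 annotated starts of the 10 genes, beside the 19276 starts of all coding genes. TATCGA was in 3 of the 15 windows (Su(H), mam and the inner numb start), against 25.2% of all, and TATCGATA in 1 (Su(H)), against 7.98%. GAGAGA was in 4 (Dl, both starts of Ser and the outer start of numb), against 14.5%. TAATTA was in 2 (the outer start of numb and the inner start of neur), against 18.8%, and CACGTG in 1 (Hey), against 4.01%. GTGGGAA and GTGAGAA were in none, against 3.74% and 3.07%. The Dl promoter thus held GAGAGA without a ranked summit within 1 kb. Windows of neighbouring starts in one gene can overlap, and absence of these letters says only that they are not in that window.

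Of 36 further genes of the pathway, 28 (77.8%) had a pooled summit in their window, against 57.1% of coding genes, and 18 (50%) had one nearest to their own start, against 26.4%. The list was drawn up with results of these data known, so its share is a description only. The window lengths of these 36 genes were not set beside those of all coding genes. The strongest own-start peaks of these 18 genes had a median signal of 235 and a range of 60.5 to 652, and 14 were at or above the list's median of 107. Among the 10 core genes, 4 had an own-start summit, and 3 of these 4 (Dl, Su(H) and mam) had one at or above it. The share of all coding genes with an own-start peak at or above that signal was not counted.

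Among the 9 genes of receptor maturation and cleavage, 8 had a summit and 5 had one nearest to their own start. These 5 were fng, a glycosyltransferase that modifies Notch (signal 128), rumi, an O-glucosyltransferase (334), Fur1, a furin protease (215), kuz, the metalloprotease that cuts the bound receptor (161), and Psn, the catalytic subunit of gamma-secretase (219). The summits at nct, aph-1 and pen-2, the other gamma-secretase subunits, were nearest to CG7006, Taf10b and Ote. Of the 7 genes of ligand endocytosis and its inhibitors, mib1, a ubiquitin ligase (336), lqf, the fly epsin (289), and shi, the fly dynamin (652), had a summit nearest to their own start. The 4 small inhibitors of Neuralized, Brd, Tom, Ocho and BobA, had no summit.

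Of 6 genes of receptor trafficking and degradation, 4 had a summit, and it was nearest to their own start in the ubiquitin ligase genes Su(dx) (536) and Nedd4 (67.9). All 7 nuclear partners had a summit, and 5 had one nearest to their own start: the corepressor gene gro (251), insv, which encodes a corepressor that binds Su(H) (134), sno (294), and the Mediator kinase-module genes skd (73.7) and kto (473). Of 7 Numb partners 6 had a summit, and 3 had one nearest to their own start: pon (78.7), baz, the fly Par-3 (375), and insc (60.5), whose summit was equally near to a start of sktl. The peaks of Nedd4, insv, skd and insc were in neither replicate's thresholded list.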

How the data were processed

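Unc-4-eGFP ChIP-seq was measured in 2 replicates of 1 group. The deposited files used were 8 peak lists on dm6, per the labels: 4 thresholded and 4 ranked ones, with 1 of each per replicate and 2 of each over both replicates (pooled and conservative). The authors' lists give a signal value per peak, a score from 0 to 1000 that follows the global IDR, and 1 other quantity, the summit offset in bp. In the authors' ranked lists the global IDR stands as its −log10, like a q-value. Per the deposited descriptions, the thresholded lists also derive from a further file whose role is not stated; every pooled ranked peak whose global IDR was 0.01 or lower in the windows of the 10 genes was in the pooled thresholded list. Peak caller and aligner: not given in the sources used here. From the ranked lists over both replicates, 16 columns on the separate IDR inputs were left unused. Read depth is unknown, so no counting interval was given.

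Genes and transcript starts of every biotype came from the Ensembl BDGP6.54 annotation (release 115). Dl is listed there as Delta, nct as Nct and lgd as l(2)gd1. Ranks count nuclear peaks by signal within a list. Replicate values of a peak are the highest signal among replicate peaks overlapping it by 1 bp or more. The text names all 10 genes, each gene whose start is nearest to a thresholded summit in their windows, and the further pathway genes with a summit nearest to their own start; other names were added after their values were seen. The members, lists and motifs were chosen with earlier results of these data known. Summit assignment was tested on simulated data, and Python 3.11.15 with numpy 2.4.6 and matplotlib 3.10.9 was used. No test was run, because peak lists of 1 group hold no comparison between conditions. Alternatives were another list, a single replicate, other windows, the list's median signal as a minimum, the overlap that counts, and other motif widths.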

Additional observations from a re-analysis of the deposited data

How the results depend on the processing

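The count of genes with a pooled summit in the window stayed between 4 and 8 of 10 (6 as reported), and that of genes with one nearest to their own start between 3 and 6 (4 as reported). The 8 came with 10 kb on either side of the gene. The share of all coding genes was not counted for the other windows, the signal minimum or the overlap rule, so no comparison stands beside those counts. The number of summits was less stable. It was 16 in the pooled list, 8 in replicate 1 alone and 11 in replicate 2 alone (N had none in replicate 1), and it was 8 among peaks at or above the median signal. With single replicates the genes with a summit numbered 4 and 5, and those with one nearest to their own start 3 and 5. Genes with a ranked summit nearest to their own start numbered 8 and 10 in the single replicates, 9 in the conservative ranked list, and 5 at a global IDR of 0.05 or less, against 10 as reported. At that limit the conservative ranked list had 7. The share of all coding genes was 66.3% in the pooled ranked list and 66% in the conservative one. It was not counted in the replicates' ranked lists, which hold 21280 and 45920 peaks. The further pathway genes with a summit numbered 25 of 36 in each single replicate, against 49.5% of coding genes in replicate 1 and 46.1% in replicate 2. Those with one nearest to their own start numbered 14 in replicate 1 and 16 in replicate 2, against 20.7% and 17.9% of coding genes. Within 100 bp of the summit, where more bases were searched, TAATTA was found at 1 of the 16 summits, against 11.8% of all summits. GAGAGA was at 6, against 12.02%, and GTGGGAA at 1, against 2.27%. TATCGA was at 4, against 42.7%, and TATCGATA at 1, against 18.3%. CACGTG and GTGAGAA were at none, against 3.57% and 2.74%. Counting only starts of protein-coding genes, a summit in any of the 4 thresholded lists, or the conservative ranked list at that limit was chosen after seeing the data. No paired analysis was possible because there was 1 group. Peak lists hold no read counts, so a gene without a listed peak may have binding below what these lists report.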
